A study of Rattus norvegicus with 10 samples.

Results

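The genes described here are the 10 transporters that carry bile acids, organic anions, phospholipid and sterols into and out of the hepatocyte. They were taken by name, and every probe set that the platform's gene table gives to one of them alone was kept, which left 12 probe sets of 31042 tested. The 4 uptake genes Slc10a1, Slco1a1, Slco1a4 and Slco1b2 had 6 probe sets, and the 6 export genes Abcb11, Abcb4, Abcc2, Abcc3, Abcg5 and Abcg8 had 6. Livers of 10 male rats aged 13 weeks were measured on 1 array each. The N-group of 5 rats was fed for 30 days (4 weeks in another label) on a feed in which instant noodle made up 30 wt% and fat gave 26% of energy, and the C-group of 5 rats on the same feed lacking only the seasonings, so that noodle and fat were common to both. Intake was matched between the groups, at about 60 g for each kg of body weight daily. N-group animals carry the numbers 1, 4, 7, 10 and 13 and C-group animals 2, 5, 8, 11 and 14. The labels name no strain.

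Bile acids circulate between liver and gut. Ntcp (Slc10a1) takes conjugated bile acids up from portal blood together with sodium, and the organic anion transporters Oatp1 (Slco1a1), Oatp2 (Slco1a4) and Oatp4 (Slco1b2) take up bile acids, hormones and drugs without it. At the canalicular membrane the bile salt export pump Bsep (Abcb11) secretes bile acids, Mdr2 (Abcb4) moves phosphatidylcholine into bile, Mrp2 (Abcc2) exports conjugated bilirubin and glutathione conjugates, and Abcg5 with Abcg8 forms 1 heterodimer that exports cholesterol and plant sterols. Mrp3 (Abcc3) works at the opposite, sinusoidal membrane and returns conjugates to blood.

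Sequence windows of 4 members are shown so that genes described together below can be set side by side. Abcg5 and Abcg8 share one. Slco1a4, by 1 of its 2 probe sets, passed a test of joint variation with Abcb4. Of the 3 pairs passing that test, 1 was the 2 probe sets of Slco1a4 itself. Abcc2 had the smallest p between the diets. The sequences were not tested against the values. Each is a RefSeq window of GRCr8, 5′ to 3′ on the gene's own strand. For Abcg5, Slco1a4 and Abcc2 it runs from 250 bases before to 50 after the annotated gene start. The Abcb4 window lies wholly inside the annotated gene (chr4:26106895-26164440), so it does not show the bases before the annotated start of Abcb4. The windows are chr6:15717686-15717985 (plus) for Abcg5, chr4:176495797-176496096 (minus) for Slco1a4, chr4:26164096-26164395 (minus) for Abcb4 and chr1:252613625-252613924 (plus) for Abcc2. Capitals mark matches, on either strand, to AGGTCA (a nuclear receptor half-site), GTTAAT (an HNF1 half-site), AGATAA (the motif of GATA factors), CACGTG (an E-box) and ATTGG (the letters that the factor NF-Y is known to bind). No matches overlapped in these windows.
Abcg5: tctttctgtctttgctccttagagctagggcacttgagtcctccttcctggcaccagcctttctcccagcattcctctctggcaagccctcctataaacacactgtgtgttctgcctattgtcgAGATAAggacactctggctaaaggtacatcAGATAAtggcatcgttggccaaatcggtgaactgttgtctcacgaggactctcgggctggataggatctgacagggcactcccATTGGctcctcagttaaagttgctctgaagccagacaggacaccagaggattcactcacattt
Slco1a4: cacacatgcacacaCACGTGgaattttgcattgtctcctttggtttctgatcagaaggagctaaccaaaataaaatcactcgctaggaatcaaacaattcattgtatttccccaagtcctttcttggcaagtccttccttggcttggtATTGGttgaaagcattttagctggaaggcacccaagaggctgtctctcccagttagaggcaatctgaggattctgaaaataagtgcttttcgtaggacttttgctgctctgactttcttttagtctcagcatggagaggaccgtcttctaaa
Abcb4: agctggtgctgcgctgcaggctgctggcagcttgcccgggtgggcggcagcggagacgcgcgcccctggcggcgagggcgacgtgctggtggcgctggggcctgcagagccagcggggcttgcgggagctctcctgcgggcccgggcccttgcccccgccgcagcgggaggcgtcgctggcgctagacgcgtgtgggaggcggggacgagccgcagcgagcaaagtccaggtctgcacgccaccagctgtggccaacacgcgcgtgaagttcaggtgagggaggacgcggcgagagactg
Abcc2: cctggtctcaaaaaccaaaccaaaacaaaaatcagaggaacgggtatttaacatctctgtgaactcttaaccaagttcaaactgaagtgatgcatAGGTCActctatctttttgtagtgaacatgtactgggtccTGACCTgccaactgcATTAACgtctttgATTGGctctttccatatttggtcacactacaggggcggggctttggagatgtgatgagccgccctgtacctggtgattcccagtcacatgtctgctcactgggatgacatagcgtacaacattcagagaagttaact

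The table held windows for 8 of the 10 members, and Abcb11 and Abcc3 are only named. Abcg8 lies head to head with Abcg5: their annotated starts are 206 bases apart, on opposite strands, and the windows overlap by 295 bases, so the sequence printed for Abcg5 is also the Abcg8 start region read from the other strand. It held 2 GATA motifs, at -126 and -96 from the Abcg5 start. AGATAA is present in 11.6% of all 33469 windows of this length, and among the members in Abcg5 and Abcg8 alone, through this shared stretch. Abcc2 held 2 nuclear receptor half-sites, at -155 and -115, and 1 HNF1 half-site at -100. AGGTCA was in 3 of the 8 members' windows and 16.2% of all windows, GTTAAT in 3 of 8 and 7.45%, CACGTG in 1 of 8 (Slco1a4) and 6.42%, and ATTGG in 5 of 8 and 37.5%. Abcg5 and Abcg8 both count for ATTGG through 1 shared site, at -13 from the Abcg5 start. The Abcb4 window, which lies inside the annotated gene, held none of the 5 motifs. The bases before the annotated start of Abcb4 were not searched. The windows of Slco1a4 and Slco1a1 were 66.8% identical over an alignment of 319 positions, against 51.4% for Slco1a4 and Slco1b2. All of these are Slco1 genes that lie in the same part of chr4 (176282577 to 176682027). A match describes letters only.

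No transporter passed the test between the diets. With limma over all 31042 probe sets, 0 of the 12 member probe sets had a Benjamini-Hochberg adjusted p under 0.05 (lowest 0.9997), and 0.0% of all probe sets did. At an unadjusted p under 0.05, 1 member probe set was lower in the N-group (Abcc2) and 0 were higher, where 1.92% of all probe sets were lower and 2.56% higher, 4.48% in all. The groups did not overlap in 0 of the 12, against 0.77% of all probe sets. The median log2 difference was -0.06 over the 6 uptake and -2.35e-05 over the 6 export probe sets, and 1.91e-06 over all probe sets. All 6 uptake differences and 3 of 6 export differences were below 0, as were 49.4% of all. Without N-group animal 13, 3 of the uptake differences were above 0 (Slco1a1 at 0.0318, Slco1a4 at 0.0134 and 0.0588).

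The deposited table splits the members into 8 probe sets that varied among the livers and 4 that hardly moved. An SD at or under 0.01 log2 units over the 10 livers is called near-constant here. The 4 were Abcb11, Abcc3, Abcg8 and probe set 1387679_at of Slco1b2, with an SD of at most 0.000239 and a range of at most 0.000786. Of all probe sets 13.0% varied. How the table was normalized was not stated, so these 4 give no usable size for a diet difference, and a flat value is no measurement of equal mRNA. Abcc3 (6.44) and Abcg8 (6.03) also lay under the array medians of 6.47 to 6.48. Among the 4050 varying probe sets alone, limma called 13 (0.321%) and 0 of the 8 members, whose lowest adjusted p was 0.341 (Abcc2). At an unadjusted p under 0.05 in that fit, 1 of the 8 was lower and 0 higher, against 6.25% and 6.62% of the varying probe sets (12.9% in all), and 0 of the 8 did not overlap, against 2.99%. Of the 8, 7 differences were below 0, against 46.7%. Over varying probe sets the median difference was -0.064 for the 5 uptake, -0.0036 for the 3 export and 0.00785 for all 4050. The export median over 6 given above lies between the near-constant Abcg8 and Abcb11. Among the 6 uptake differences, that of the near-constant 1387679_at was -0.0001.

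**Figure D1:**
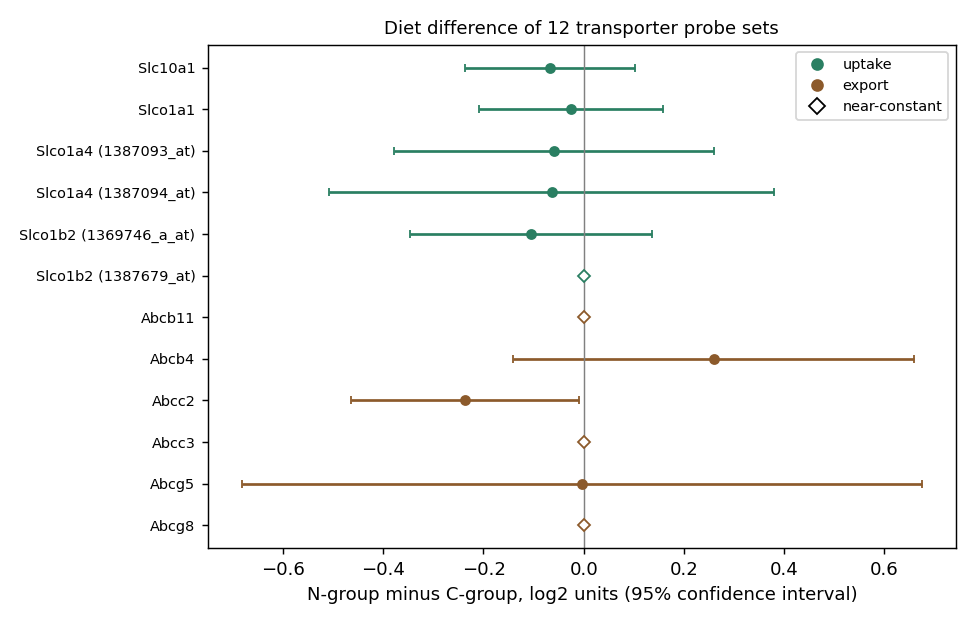
Log2 difference between the diets (N-group minus C-group, x axis) for the 12 transporter probe sets, uptake above export. Points are limma estimates from 5 livers per group, bars are 95% confidence intervals, and open diamonds are the 4 near-constant probe sets. The interval of Abcc2 alone lies below 0 among the varying ones, and that of Abcg5 is the widest.

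The uptake carriers differed by at most 0.11 log2 units between the diets. Slc10a1 (1368609_at) had log2 signals of 12.33, 12.36, 12.23, 12.56 and 12.18 in N-group animals 1, 4, 7, 10 and 13, against 12.45, 12.43, 12.42, 12.25 and 12.44 in C-group animals 2, 5, 8, 11 and 14. The N-group holds both the highest liver (animal 10) and the lowest (animal 13), and 4 of its livers lay below the C-group mean. The difference was -0.07 ± 0.07 (SE, 5 livers per group), with a 95% confidence interval of -0.24 to 0.10. Control animal 11 stood 0.17 below the other controls, which lay close together.

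Slco1a1 (1387567_at) read 10.08, 10.18, 10.0004, 10.22 and 9.84 in the N-group and 10.09, 9.92, 10.14, 10.12 and 10.17 in the C-group, each in the order of the animal numbers. The groups overlapped throughout, with animal 13 lowest and animal 10 highest of all livers. The difference was -0.03 ± 0.08, with an interval of -0.21 to 0.16.

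Slco1a4 was read by 2 varying probe sets. For 1387093_at the signals were 11.49, 11.96, 11.52, 11.79 and 11.32 in the N-group and 11.65, 11.81, 11.87, 11.36 and 11.69 in the C-group. For 1387094_at they were 10.07, 10.62, 9.97, 10.17 and 9.60 in the N-group and 10.21, 10.37, 10.37, 9.79 and 10.01 in the C-group. Both placed animal 4 highest and animals 13 and 11 lowest. The diet differences were -0.06 ± 0.14 and -0.06 ± 0.19, with intervals of -0.38 to 0.26 and -0.51 to 0.38.

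Slco1b2 was read as varying by 1369746_a_at and as near-constant, at 11.52 in every liver, by 1387679_at. The varying probe set stood at 10.87, 10.65, 10.72, 10.77 and 11.14 in the N-group and 10.73, 10.90, 11.04, 11.12 and 10.89 in the C-group. Here animals 13 and 11, the low livers of Slco1a4, were the 2 highest. The difference was -0.11 ± 0.11, with an interval of -0.35 to 0.14.

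**Figure D2:**
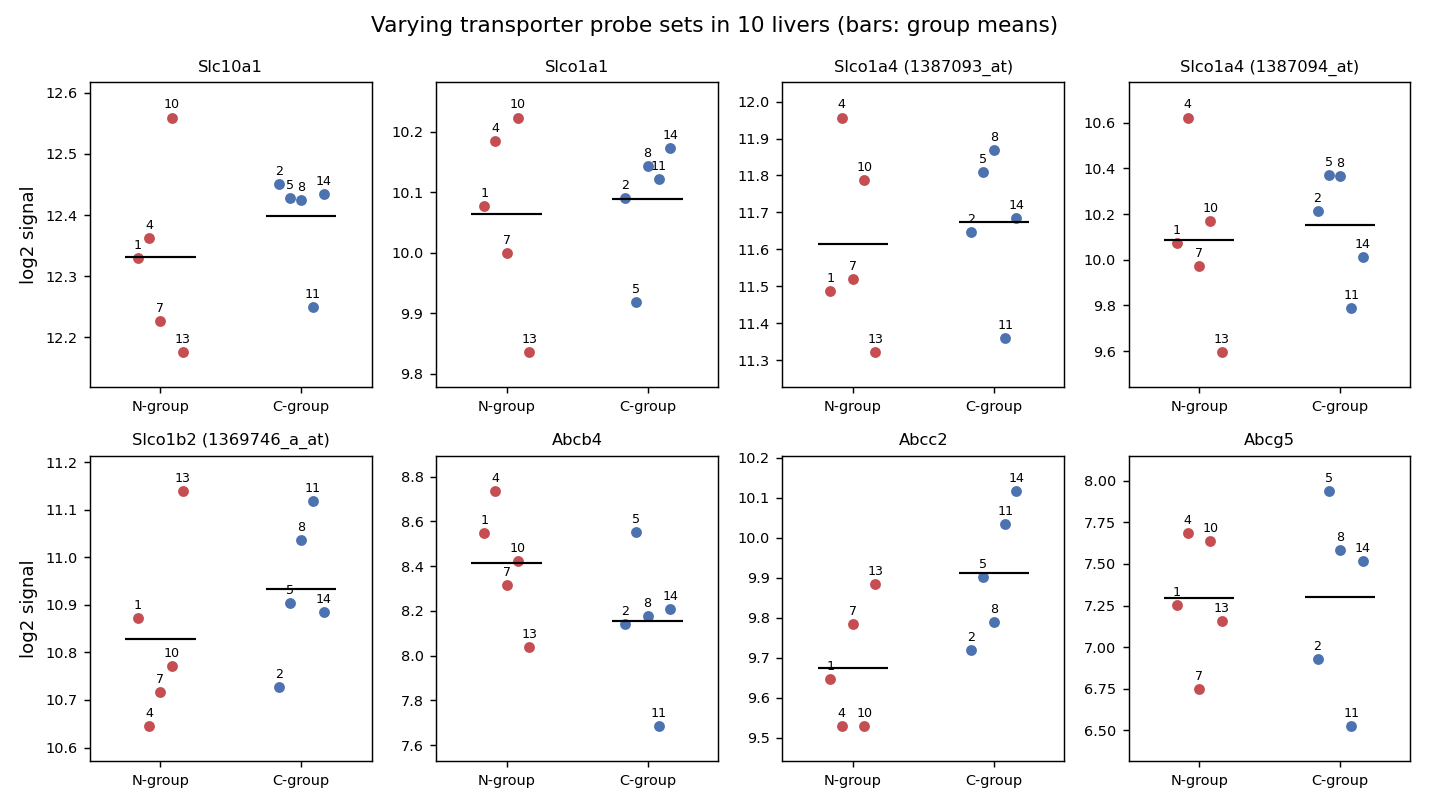
Log2 signal (y axis, own scale per panel) of the 8 varying transporter probe sets, with the 5 N-group livers left and the 5 C-group livers right. Each point is 1 liver with its animal number, and bars are group means. The diets overlap in all 8 panels, and animals 11 and 13 lie low in both Slco1a4 panels and Abcb4 but high in Slco1b2.

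Among the exporters, Abcc2 (1368497_at) had the largest difference relative to its spread. It read 9.65, 9.53, 9.78, 9.53 and 9.88 in the N-group, against 9.72, 9.90, 9.79, 10.04 and 10.12 in the C-group. All 5 N-group livers lay below the C-group mean, but animals 13 and 7 reached into the range of the controls. The means were 9.68 ± 0.16 and 9.91 ± 0.17 (SD, n = 5 each), a ratio of 0.849 for N-group over C-group with a 95% confidence interval of 0.725 to 0.993. The log2 difference was -0.24 ± 0.10 (SE), with an unadjusted p of 0.0426 by limma and an exact permutation p of 0.0556 over the diet labels, two-sided. Among animals 1 to 7 alone it was -0.16 and among animals 8 to 14 alone -0.27, sets that an earlier look at these data had found to differ in many genes. Without C-group animal 14 the difference was -0.19, and without N-group animal 13 it was -0.29, the ends of the range with 1 liver left out. The unadjusted p then lay between 0.0185 and 0.0949. In bulk tissue, fewer cells of a type and less RNA per cell cannot be told apart. For 3 of 4 clock genes the groups did not overlap, against 0.77% of all and 2.99% of varying probe sets, though 0 passed the adjusted test. At an unadjusted p under 0.05 by limma, 3 of the 4 were lower and 1 higher in the N-group. Their summed log2 level, which mixes both directions, was 27.7 to 29.6 in the N-group and 29.8 to 32.9 in the C-group. Dbp, a clock output gene, averaged 6.39 ± 0.56 in the N-group and 8.84 ± 0.88 in the C-group (SD, n = 5 each). The lists of zonation markers overlapped between the groups in all 8 genes, with 1 of 4 genes in each under an unadjusted p of 0.05 by limma. Of the 4 periportal hepatocyte markers this was Sds (unadjusted p = 0.00182), at 7.54 ± 0.90 in the N-group and 9.56 ± 0.52 in the C-group, and the list summed to between 41.9 and 44.8 in the N-group and between 44.2 and 45.5 in the C-group. Of the 4 pericentral markers it was Cyp1a2 (unadjusted p = 0.0195), at 10.75 ± 0.16 in the N-group and 10.27 ± 0.35 in the C-group, and the list summed to between 45.1 and 46.1 in the N-group and between 44.2 and 46.3 in the C-group. The part of these lists in the transporter values was not tested.

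Abcb4 (1369161_at) had the only difference above 0 among the varying members. It read 8.55, 8.73, 8.32, 8.42 and 8.04 in the N-group and 8.14, 8.55, 8.18, 7.69 and 8.21 in the C-group. N-group animals 1, 4, 7 and 10 lay above the 4 controls other than animal 5, while animal 13 lay below the 4 controls other than animal 11. The means were 8.41 ± 0.26 and 8.15 ± 0.31 (SD, n = 5 each), and the log2 difference was 0.26 ± 0.18 (SE) with an interval of -0.14 to 0.66 and an unadjusted p of 0.176 by limma. Without control animal 11, the lowest liver, it was 0.14. Animals 8 to 14 were 0.31 below animals 1 to 7 in a fit with diet, with an adjusted p of 0.235 by limma. No member passed for that parting, which 3.27% of all and 24.3% of varying probe sets did.

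No diet difference was detected for the sterol half-transporters, within wide limits. Abcg5 (1369455_at) read 7.25, 7.68, 6.75, 7.64 and 7.16 in the N-group and 6.93, 7.94, 7.58, 6.53 and 7.52 in the C-group. Both the highest liver (animal 5) and the lowest (animal 11) were controls. The difference was -0.0036 ± 0.30 with an interval of -0.68 to 0.67, wide enough to hold a change of 1.6-fold (ratios of 0.623 to 1.60) either way. Its SD of 0.45 over the 10 livers exceeded that of 94.2% of varying probe sets, the widest spread of any member. Within animals 1 to 7 the difference was -0.20 and within animals 8 to 14 it was 0.19.

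Abcb11 stood at 10.84 in every liver, with N-group minus C-group at 5.77e-05. Abcc3 lay between 6.435 and 6.436 and Abcg8 between 6.026 and 6.027. These values are given as deposited, and no fold is read from them.

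Although Abcg8 moved by less than 0.001 log2 units, its order over the livers followed that of Abcg5. Relative to the mean of its diet, Abcg8 in units of 0.0001 log2 was at -0.409, 0.838, -1.87, 1.37 and 0.0781 in N-group animals 1, 4, 7, 10 and 13, and at -2.24, 3.90, 2.20, -3.96 and 0.106 in C-group animals 2, 5, 8, 11 and 14. Abcg5 in log2 units was at -0.04, 0.39, -0.55, 0.34 and -0.14 in the N-group and at -0.37, 0.64, 0.29, -0.77 and 0.22 in the C-group. Both genes placed animal 7 lowest in the N-group and animals 11 and 2 lowest in the C-group, and both placed animals 5 and 8 highest in the C-group. Pearson's r over the 10 livers, centred on the diet means, was 0.947 and Spearman's rho 0.927, with exact permutation p-values of 0.000278 and 0.000556 within the diets and adjusted p-values of 0.00806 and 0.0161 over 29 member pairs. The 29 were the 28 pairs among the 8 varying probe sets, and Abcg5 with Abcg8. Other pairs with a near-constant probe set were not in this test or its adjustment.

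The relation of Abcg5 and Abcg8 held in each diet and with any liver left out. It was 0.952 in the N-group livers and 0.976 in the C-group livers, and between 0.910 and 0.962 with 1 of the 10 livers left out. Without the 2 livers farthest from the Abcg5 median (animals 11 and 7) r was 0.908. After removing the means of diet and animal-number set together r came to 0.946, with an exact p of 0.00694, the smallest that the 144 assignments allow, and an adjusted p of 0.115. Of the 4050 varying probe sets, Abcg5 had the highest r with Abcg8, followed by Acaa2, a mitochondrial thiolase, at 0.927. This ranking was made after the pair's values had been seen.

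The other near-constant members did not mirror a partner in this way. The near-constant and the varying probe set of Slco1b2 had an r of 0.255. Abcb11 and Abcc3 had r values between -0.586 and 0.237, and between -0.361 and 0.451, with the 8 varying member probe sets. Abcg8 was not like Abcg5 alone. Its r was 0.697 with Abcb4, 0.679 with Slco1a4 (1387093_at), 0.547 with 1387094_at and 0.502 with Slc10a1. With Slco1a1, Slco1b2 (1369746_a_at) and Abcc2 it was -0.0991, -0.0533 and -0.267. Over all genes that have both kinds of probe set, the 1574 pairs of 1 varying and 1 near-constant probe set had a median r of 0.453, with 2.29% at or above the value of Abcg5 and Abcg8. These are descriptions across probe sets of the same 10 arrays.

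**Figure D3:**
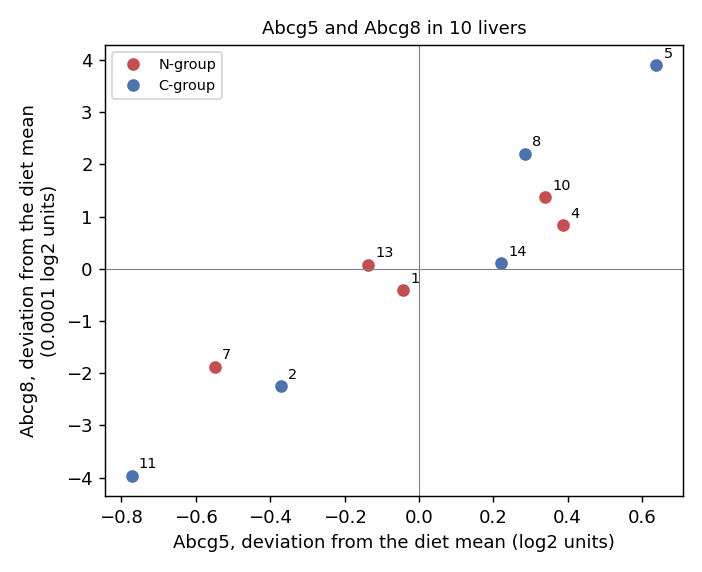
Deviation of each liver from its diet mean for Abcg5 (x axis, log2 units) and Abcg8 (y axis, units of 0.0001 log2), with animal numbers. The 10 livers line up with a Pearson r of 0.947.

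A further 2 pairs passed among the 29. The 2 probe sets of Slco1a4 had an r of 0.935 (exact permutation p = 0.000556, adjusted p = 0.00806, rho 0.867), and 0.878 without the 2 farthest livers. Abcb4 and Slco1a4 (1387094_at) had an r of 0.857 (exact permutation p = 0.00347, adjusted p = 0.0336), a rho of 0.745 (adjusted p = 0.107) and 0.791 without the 2 farthest livers. This pair lost its adjusted p under 0.05 without N-group animals 4, 7 or 13, or C-group animals 2, 5 or 11. Its r then lay between 0.798 and 0.880. Abcb4 with 1387093_at, the brighter Slco1a4 probe set, did not pass (r = 0.809, rho 0.661, adjusted p = 0.0535 by exact permutation).

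Several other pairs came near the threshold without passing. Abcg5 had an r of 0.785 with Abcb4 and 0.783 with Slco1a4 (1387093_at), with adjusted p-values of 0.0535 and 0.0503 by the exact permutation test. Abcc2 ran against Slco1a4 (1387094_at), with an r of -0.783 and an adjusted p of 0.0535. With 1387093_at its r was -0.680, with an adjusted p of 0.115 by the same test. In all, 17 of the 29 pairs had a positive r. Slco1b2 (1369746_a_at) and Abcc2 had a positive r with each other (0.571) and negative ones with the 6 other varying probe sets, a pattern of signs that was not stable. Among C-group livers alone Slco1a1 was positive with both, at 0.204 with Slco1b2 and 0.234 with Abcc2, and Slco1b2 with Abcb4 was at -0.00957 without the 2 farthest livers.

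The pairs were also read with array-wide shifts taken out and without 1 control animal. The median of the varying probe sets was 8.27, 8.26, 8.24, 8.10 and 8.14 in the N-group and 8.21, 8.30, 8.19, 8.07 and 8.22 in the C-group, lowest in animals 11, 10 and 13. With each array centred on that median, chosen after seeing the data, r was 0.810 for Abcb4 with Slco1a4 (1387094_at) and 0.931 for Abcg5 with Abcg8 as deposited. It was -0.844 for Abcc2 with Slco1a4 (1387094_at), whose adjusted p of 0.0342 by exact permutation made it a passing pair, 4 in all. With 1387093_at it was 0.701 for Abcb4 and -0.604 for Abcc2, neither passing (adjusted p of 0.0979 and 0.149 by exact permutation). Other pairs shrank or turned their sign with that centring: r was -0.207 for Slc10a1 with Abcc2 (-0.682 as deposited), 0.0214 for Slco1a1 with Abcc2 (-0.475), 0.0279 for Slc10a1 with Slco1b2 (-0.564) and 0.141 for Slco1a1 with Slco1b2 (-0.455). Control animal 11 was the lowest liver of Abcb4 and Abcg5, and its Dbp was 7.28, where the control median was 9.09. Without it only Abcg5 with Abcg8 kept an adjusted p under 0.05 (0.0403, r = 0.910). The part of its clock state in these relations was not tested.

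**Figure D4:**
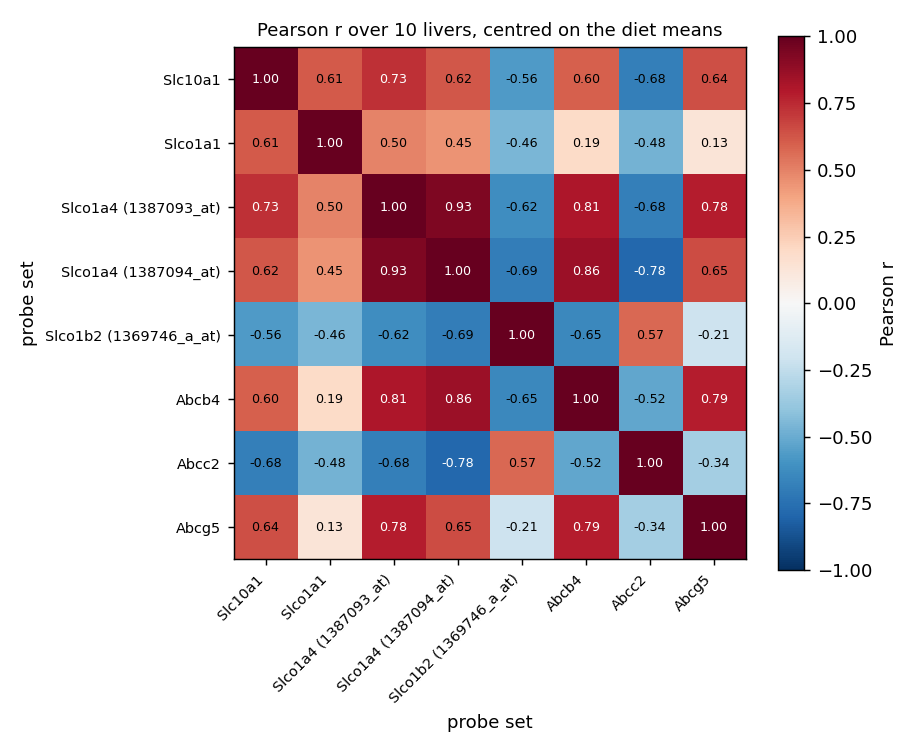
Pearson r between the 8 varying transporter probe sets over 10 livers, each centred on its diet mean (both axes: probe sets, colour: r from -1 to 1). Slco1a4, Abcb4 and Abcg5 form a block of r between 0.65 and 0.93, while Abcc2 and Slco1b2 are negative with the other 6. With arrays centred on the median of varying probe sets, which is not plotted, 3 of these negative values turn positive (0.0279, 0.141 and 0.0214).

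For each member whose brightest probe set varied, the genes with the most similar pattern over the 10 livers were read from 2612 other varying genes, again centred on the diet means. Slc10a1 was most like Pctp, a phosphatidylcholine transfer protein (r = 0.929), and Bcar3 (0.835). Slco1a1 was most like Apon (0.888) and Acyp2 (0.851), and Slco1a4 most like Vegfb, a growth factor (0.965), and the monocarboxylate transporter gene Slc16a7 (0.929). Abcb4 was most like Prxl2c (0.9748) and Serinc5 (0.962), and Abcg5 most like Mia3 (0.932) and the phospholipase gene Pla2g12a (0.912). Abcc2 was most like Stard5, a sterol-binding START protein (r = 0.967, rho 0.988), and Arf4 (0.922). Stard5 itself differed by 0.31 ± 0.13 between the diets, with the opposite sign to Abcc2 and an unadjusted p of 0.0506 by limma. As maxima over many genes these r values carry no p.

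Other transporters of bile acids, anions, sterols and phospholipid did not pass either. Of 24 listed, 18 were measured and 11 varied, 5 with differences above and 6 below 0, and 0 were called. Slc22a8 (Oat3), an organic anion carrier, had the smallest p of these, at 10.24 ± 0.19 in the N-group and 9.95 ± 0.19 in the C-group (SD, n = 5 each), with a log2 difference of 0.29 ± 0.12 (SE) and an unadjusted p of 0.0356 by limma. Its N-group livers ran from 10.08 to 10.49 and overlapped the controls, at 9.66 to 10.16. Slco2b1, another Oatp, differed by -0.12 ± 0.06. Slc10a2, the ileal bile acid carrier that cholangiocytes also use, and Tmem30a, a flippase subunit, were near-constant, with differences of 0.0029 and -0.00021. The basolateral exporters Slc51a and Abcc4 were near-constant at 6.203 and 6.214. Slc51b had no probe set of its own in the platform table.

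No gene of bile acid synthesis, its regulators or canalicular scaffold was called between the diets. Of 23 listed genes, 21 were measured, and 12 varied (5 above and 7 below 0). At an unadjusted p under 0.05 by limma, 1 was lower, the near-constant Baat. Cyp7a1, the first enzyme of the classical synthesis route, ran from 6.69 to 9.61 in the N-group and from 7.33 to 8.62 in the C-group. Nr0b2 (Shp), a repressor induced by the bile acid receptor, was at 8.48 ± 0.51 in the N-group and 8.92 ± 0.85 in the C-group (SD, n = 5 each), a difference of -0.44 ± 0.43 (SE). Among animals 1 to 7 it was -1.10, and among animals 8 to 14 it was 0.25. The receptor itself, Nr1h4 (Fxr), differed by 0.06 ± 0.08 with an interval of -0.13 to 0.25, and Cyp8b1, the sterol 12-alpha-hydroxylase, by 0.04 ± 0.14. Radixin (Rdx), which anchors Abcc2 at the canalicular membrane, stood at 10.66 ± 0.22 in the N-group and 10.38 ± 0.24 in the C-group, a difference of 0.28 ± 0.14 (SE) with an unadjusted p of 0.0768 by limma. Nr1h3 (Lxr alpha), the sterol receptor that induces Abcg5 and Abcg8, was near-constant at 8.94, as were Baat, the bile acid conjugating enzyme (12.54), the scaffold Pdzk1 (8.17) and the motor Myo5b (6.42).

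**Figure D5:**
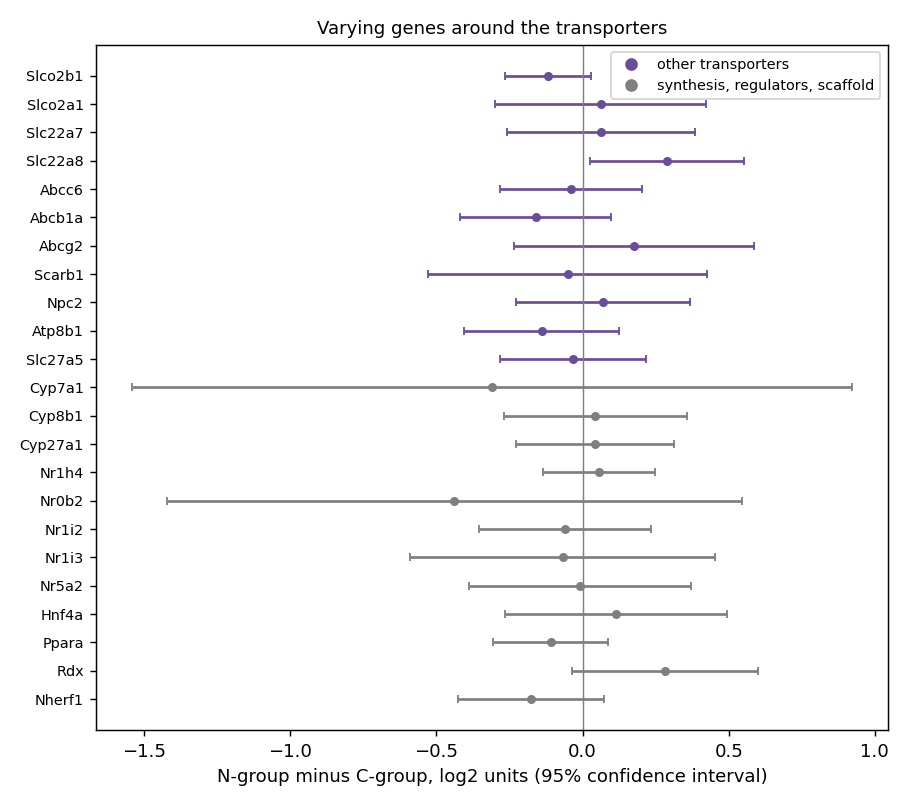
Log2 difference between the diets (N-group minus C-group, x axis) for the varying genes of the 2 related lists, 11 other transporters above and 12 genes of synthesis, regulation and scaffold below. Points are limma estimates from 5 livers per group and bars are 95% confidence intervals. The interval of Slc22a8 lies above 0 before adjustment, and Cyp7a1 and Nr0b2 have the widest intervals.

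The labelled tissue was checked on markers. The hepatocyte genes Alb (14.34) and Ttr (13.77) were among the brightest signals. Of 6 measured hepatocyte markers, the summed log2 level ran from 81.1 to 81.3 in the N-group and from 80.8 to 81.1 in the C-group, with Apoa1 the 1 varying member. Apoa1, at 12.28 ± 0.10 in the N-group and 12.05 ± 0.13 in the C-group (SD, n = 5 each), did not overlap between the groups, and its adjusted p by limma was 0.850. The bile duct markers Krt19 (6.11), Krt7 (5.95) and Cftr (6.17) were near-constant under the array medians, while Spp1 (6.56, near-constant) and Epcam (7.25 ± 0.10 in the N-group and 7.13 ± 0.24 in the C-group, SD, n = 5 each) lay above them. The 5 measured ones summed to between 31.9 and 32.1 in the N-group and between 31.6 and 32.2 in the C-group. The extraction text names brain, and 4 of 5 brain markers were near-constant under or at the array medians, the exception being Mbp, at 7.38 ± 0.41 in the N-group and 7.15 ± 0.20 in the C-group (SD, n = 5 each). By the codes in the labels, read as array row and position, row A held the N-group and row B the C-group, and effects of row and of diet cannot be told apart.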

How the data were processed

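Each liver gave 100 ng of total RNA, which was turned into biotinylated cRNA, per the labels' protocols. The deposited table holds log2 signals of 31099 probe sets on 10 arrays. The sources used here do not state its normalization, and the log base was read from the values (4.79 to 14.34). Scanner intensities and detection calls were not used here, so signal over background could not be judged. The precision of the diet comparison is limited by the 5 rats per group.

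The 57 control probe sets were left out. The platform's gene table gave 20826 probe sets 1 gene, 436 several genes and 9780 none. Gene identifiers gave current symbols from the RefSeq table of GRCr8 (20758 matched), and promoter windows came from RefSeq GRCr8.

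The diets were compared with limma 3.58.1 (lmFit, eBayes, two-sided) in R 4.3.3 over all 31042 probe sets, with Benjamini-Hochberg adjustment and calls at an adjusted p under 0.05, a step tested on simulated data. The labels number the animals separately, so p-values measure the spread between rats. Dim probe sets were kept, and other lists used each gene's probe set with the highest mean. Relations between members used exact permutation within the diets (14400 assignments). Named genes are all members, the 4 genes with the smallest p of each related list, 8 bile acid genes and the 2 most similar genes per member. Acaa2 and the markers Dbp, Sds, Cyp1a2, Alb, Ttr, Apoa1, Krt19, Krt7, Cftr, Spp1, Epcam and Mbp are named beside these, Acaa2, Sds and Cyp1a2 after their values were seen. Members, lists and the animal-number sets were chosen with earlier results of these data known. Alternatives covered the features fitted, rescaling, variance models, tests, covariates and each liver left out.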

Additional observations from a re-analysis of the deposited data

Results flagged for a closer look

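Among 54 groups of 5 livers (27 probe sets of members and named genes in both diets), 3 had 1 end liver set off from the next by more than 0.71 of the spread between lowest and highest. Chance gives about 1 in 20 for normally distributed values, or 2.7 here. The groups share the same livers, and how far a count may stray from 2.7 was not tested. Control animal 11 was low for Slc10a1 (ratio 0.87), at 12.25 against 12.42 to 12.45 in the other controls. Control animal 5 was high for Cyp8b1 (ratio 0.714), at 11.45 with the next control at 10.99. N-group animal 1 was high for the near-constant Myo5b (ratio 0.798), by a gap that has no measurable size.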

How the results depend on the processing

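No member was called under any of the settings run over all probe sets, genes or varying probe sets, with each liver left out included. The count of members with an unadjusted p under 0.05, which is 1 (Abcc2), was 0 after repeated quantile normalization, with animal-number set blocked and by exact permutation, and 2 (Abcc2 and Abcb4) with arrays centred on the median of varying probe sets. It lay between 0 and 1 with 1 liver left out. It was 0 without N-group animals 1, 4 or 10 or C-group animals 5, 11 or 14. The unadjusted p of Abcc2 by limma, 0.0426 in the main fit, moved both ways. With array position as a covariate it was 0.00626 (difference -0.307), and with arrays centred 0.00965. After quantile normalization it was 0.0589, and with animal-number set blocked 0.0665. Calls over all probe sets, which are 0, came to 13 among varying probe sets, 255 with arrays centred and 10 without C-group animal 11. With arrays centred the Abcb4 difference was 0.257, against 0.259, but its SE was 0.0955, against 0.176. In that fit near-constant probe sets carried the array offsets as spread (SE of 0.055 for Abcb11), and limma draws on the variance of all probe sets. The part of this in the p of Abcc2 and Abcb4 and in the 255 calls was not tested. Member pairs with arrays centred kept near-constant probe sets as deposited. Abcc2 and Abcb4 kept their sign in all 22 settings, between -0.31 and -0.19 and between 0.14 and 0.36. Abcg5 differed by 0.0064 after quantile normalization and 0.0194 with array position as a covariate, and lay between -0.20 and 0.16 with 1 liver left out. With array position, Slco1a4 (1387094_at) differed by 0.0557. With 1 liver left out, Slco1a1 lay between -0.0679 and 0.0318, and the 2 probe sets of Slco1a4 between -0.145 and 0.0134 and between -0.198 and 0.0588, all 3 turning above 0 without N-group animal 13. The near-constant Abcb11 differed by -0.0186 after quantile normalization and -0.0028 with arrays centred, and Abcc3 by -0.0027 with arrays centred. Centring took 1 offset per array from every probe set, so the near-constant members all moved alike, Abcg8 and Slco1b2 (1387679_at) to -0.0030 each. The cause of the other turns was not tested. The count of member pairs with an adjusted p under 0.05, which is 3, was 0 when centred on diet and animal-number set, where few assignments exist, 4 with arrays centred, and lay between 1 (without C-group animal 11) and 7 (without N-group animal 10) with 1 liver left out. The labels name no pairs. With neighbouring animal numbers taken as pairs, Abcc2 differed by -0.24 with an unadjusted p of 0.0488 by limma. Signal over background could not be judged for any member.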
